A study of Mus musculus with 16 samples.

Results

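A set of 10 genes of the epithelial acute phase response and of iron and complement handling was followed in sorted mouse Paneth cells: Steap4, Lcn2, Pigr, Cfb, C3, Saa1, Saa2, Saa3, Hp and Cp. They are 10 of the 55414 genes of the deposited count table, and they were taken by name. The set was chosen by known function and in part by a measured value, the TNF difference of Steap4, which is among the largest in these data, so the members' values in both comparisons of TNF with PBS are given here as descriptions and support nothing. Paneth cells are secretory cells at the base of the small intestinal crypts that release antimicrobial proteins, and C57BL/6J mice were used, per the study's methods. Mice were injected with PBS (vehicle) or DEX, then after 1 h with PBS or tumour necrosis factor (TNF), and sampled 3 h after that. DEX usually stands for dexamethasone, a synthetic glucocorticoid, but the sources used here give the abbreviation alone. The 16 libraries form 4 groups of 4, named by both injections: PBS+PBS and PBS+TNF without DEX, and DEX+PBS and DEX+TNF with it. The labels call the 4 libraries of a group biological replicates, the whole small intestine is the tissue given, and all libraries come from cells that passed the same Paneth cell sort, so the table holds no other cell type for comparison.

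The acute phase response is the change in secreted proteins that follows infection or injury. Interleukin-1, interleukin-6 and TNF drive it through the transcription factors NF-κB, STAT3 and the C/EBP family, and glucocorticoids are known to add to the induction of several acute phase genes in the liver. Epithelia make part of the same set locally. Iron withholding is 1 arm of the response, since most bacteria need iron to grow, and complement and the transport of immunoglobulin A are further arms at mucosal surfaces.

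The upstream sequences of the members that the results turn on are shown here because NF-κB, C/EBP and STAT sites are the textbook elements of acute phase promoters. RefSeq promoter windows, which run from 250 bases before to 50 bases after a start site, were given for 8 of the 10 members, and Cfb and Hp have no entry. The table's build is GRCm38.p6, and all 9 windows of the 8 members matched GRCm39 exactly once, so the coordinates are those of GRCm39. Capitals mark the NF-κB motif searched, 3 G, then any 5 bases, then 2 C, on either strand. The windows of Steap4, on the forward strand at chr5:8010222-8010521, of Lcn2, on the reverse strand at chr2:32277702-32278001, and of Pigr, on the forward strand at chr1:130754171-130754470, are printed 5′ to 3′ in the direction of transcription.
Steap4: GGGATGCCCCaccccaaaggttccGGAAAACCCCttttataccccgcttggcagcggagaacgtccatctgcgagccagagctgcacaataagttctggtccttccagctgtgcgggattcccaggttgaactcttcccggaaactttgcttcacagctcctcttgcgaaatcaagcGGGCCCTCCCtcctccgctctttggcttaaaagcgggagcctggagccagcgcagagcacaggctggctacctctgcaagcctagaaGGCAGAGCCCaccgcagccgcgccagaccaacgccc
Lcn2: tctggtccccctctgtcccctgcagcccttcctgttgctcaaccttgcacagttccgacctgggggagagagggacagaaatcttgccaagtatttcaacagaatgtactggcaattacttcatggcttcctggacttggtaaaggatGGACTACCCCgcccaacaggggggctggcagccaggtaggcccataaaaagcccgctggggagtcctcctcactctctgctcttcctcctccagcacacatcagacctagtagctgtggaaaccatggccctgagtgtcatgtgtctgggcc
Pigr: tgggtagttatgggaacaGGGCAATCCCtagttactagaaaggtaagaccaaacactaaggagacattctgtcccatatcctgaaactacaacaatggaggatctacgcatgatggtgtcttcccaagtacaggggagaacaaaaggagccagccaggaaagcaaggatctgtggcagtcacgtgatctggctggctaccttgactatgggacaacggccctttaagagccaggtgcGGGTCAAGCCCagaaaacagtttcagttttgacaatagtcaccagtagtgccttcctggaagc

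Steap4 held the NF-κB motif at 4 places, which start 250, 226 and 73 bases before the RefSeq start site and 14 bases after it. Its window also held the C/EBP motif TTGCNNAA 87 bases before the start site and the STAT motif TTCNNNGAA 116 bases before it. Lcn2 held 1 NF-κB motif, 102 bases before the start site, and 1 C/EBP motif, 216 bases before it. In Pigr the NF-κB motif started 232 bases before the start site and, as a pair of overlapping matches in 1 run of capitals, 13 and 12 bases before it. The NF-κB motif stood in windows of 7 of the 8 members, but it is short, and 50.8% of the 32851 RefSeq promoters hold it. N is any base, and both motifs were searched on both strands. The C/EBP motif stood in windows of Steap4, Lcn2, C3, Saa1, Saa2, Saa3 and Cp, and in 10.8% of all promoters. The STAT motif stood in the window of Steap4 and in that of Pigr, there 39 bases after the start site. Of all promoters, 8.3% hold the STAT motif. The palindromic glucocorticoid response element, searched on both strands, which 0.475% of promoters hold, was in none of the members' windows. A match is a run of letters in a fixed window and was not set against binding data.

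Total counts per library lay between 7286307 and 15832111, and 13089 to 16451 genes had at least 1 count. Levels are given as normalized CPM, counts per 1000000 counts of a library, scaled by TMM factors that ranged from 0.418 in PBS+TNF 1 to 1.50 in DEX+TNF 4. A count of 3, the limit below which a gene is read as not detectable, is worth 0.149 to 0.578 CPM depending on the library, and such limits cover counting error only. All 10 Paneth cell markers searched, among them Lyz1 and Mmp7, were detected, with summed counts between 3557235 and 9831011 per library. The libraries DEX+TNF 3 and DEX+TNF 4 stood apart from DEX+TNF 1 and 2 in genes of the TNF response. Nfkbia, the NF-κB inhibitor that NF-κB itself induces, was at 330 and 382 CPM in DEX+TNF 1 and 2 but at 28.3 and 41.0 CPM in DEX+TNF 3 and 4, against 277 to 337 CPM in PBS+TNF and 15.6 to 27.3 CPM in the groups without TNF. Sgk1, a glucocorticoid-induced kinase gene, was at 24.8 CPM or more in all 4 DEX+TNF libraries. Sgk1 was also above the PBS+PBS mean in the 4 PBS+TNF libraries, which received no DEX. Its fitted difference between DEX+TNF and PBS+TNF is given below. The libraries are used as labelled, and whether the labels or injections of DEX+TNF 3 and 4 were as stated was not tested, a limit of every DEX+TNF value. The members' differences that rest on DEX+TNF are therefore given with and without libraries 3 and 4. Those libraries were singled out by their low values in genes of the TNF response. Leaving them out tends by construction to raise TNF differences after DEX and to bring DEX+TNF closer to PBS+TNF. Any DEX difference carried by those libraries is removed with them, so values and counts without them are descriptions.

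The members spanned a wide range of levels. Per kilobase of exon, so that genes of different length can be compared, the mean over the 16 libraries was 260 CPM per kb for Pigr, 4.32 for Steap4, 1.29 for Lcn2, 0.916 for Cfb, 0.217 for Saa2, 0.160 for Saa1, 0.140 for Hp, 0.0781 for C3, 0.0383 for Saa3 and 0.00245 for Cp. Only 0.288% of the 11809 tested genes had a higher mean CPM than Pigr, whereas 36.9% were above Steap4, 73.8% above Lcn2, 75.1% above Cfb and 99.7% above C3. Saa1, Saa2, Saa3, Hp and Cp did not pass the filter on low counts, so 5 of the 10 members were tested. Steap4 passed it through the TNF groups, where it was high.

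Steap4 (ENSMUSG00000012428, chr5:8010260-8032214, forward strand), a protein-coding gene, encodes a membrane metalloreductase that reduces ferric iron and cupric copper for uptake. It was nearly silent without TNF and high with it. In PBS+PBS the 4 libraries held 2, 3, 4 and 0 counts, and their levels were 0.171, 0.192, 0.214 and 0 CPM. In PBS+TNF the counts were 141, 1107, 516 and 985, and the levels were 27.2, 66.7, 36.3 and 48.8 CPM. Every PBS+TNF library lay far above every PBS+PBS library, with group means of 44.7 ± 17.1 and 0.144 ± 0.0976 CPM (SD, n = 4). Of all tested genes, 10.8% were higher without overlap, by a gap of any size. The fitted log2 difference was 8.02 (SE 1.19), a value that belongs to the contrast by which the gene was chosen.

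After DEX, Steap4 split into high and low libraries. DEX+PBS held 0, 1, 0 and 5 counts, or 0, 0.0603, 0 and 0.255 CPM, with a mean of 0.0788 ± 0.121 CPM (SD, n = 4). DEX+TNF 1 and 2 reached 35.6 and 31.3 CPM, inside the range of PBS+TNF, while DEX+TNF 3 and 4 stood at 0.919 and 1.05 CPM, from 9 and 21 counts. These are the libraries in which Nfkbia was also low. All 4 DEX+TNF libraries were above all 4 DEX+PBS libraries, as in 2.06% of all tested genes, and the fitted log2 difference was 7.19 (SE 1.23) with all libraries and 8.14 (SE 0.529) without DEX+TNF 3 and 4. Ordered by mean, the levels were highest in PBS+TNF, then DEX+TNF (17.2 ± 18.8 CPM), PBS+PBS and DEX+PBS, and the ranges of the first pair overlapped, as did those of the last pair.

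Whether a preceding DEX injection changed the Steap4 level was tested by edgeR's quasi-likelihood test with Benjamini-Hochberg adjustment, on libraries that are partly those by which the gene was chosen. Between DEX+TNF and PBS+TNF the log2 difference was -1.38 (SE 0.78, adjusted p = 0.516), and without DEX+TNF 3 and 4 it was -0.42. Between DEX+PBS and PBS+PBS, with 0 to 5 counts per library, a difference of Steap4 was not detectable at this depth (fitted value -0.55, SE 1.84, adjusted p = 1).

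**Figure D1:**
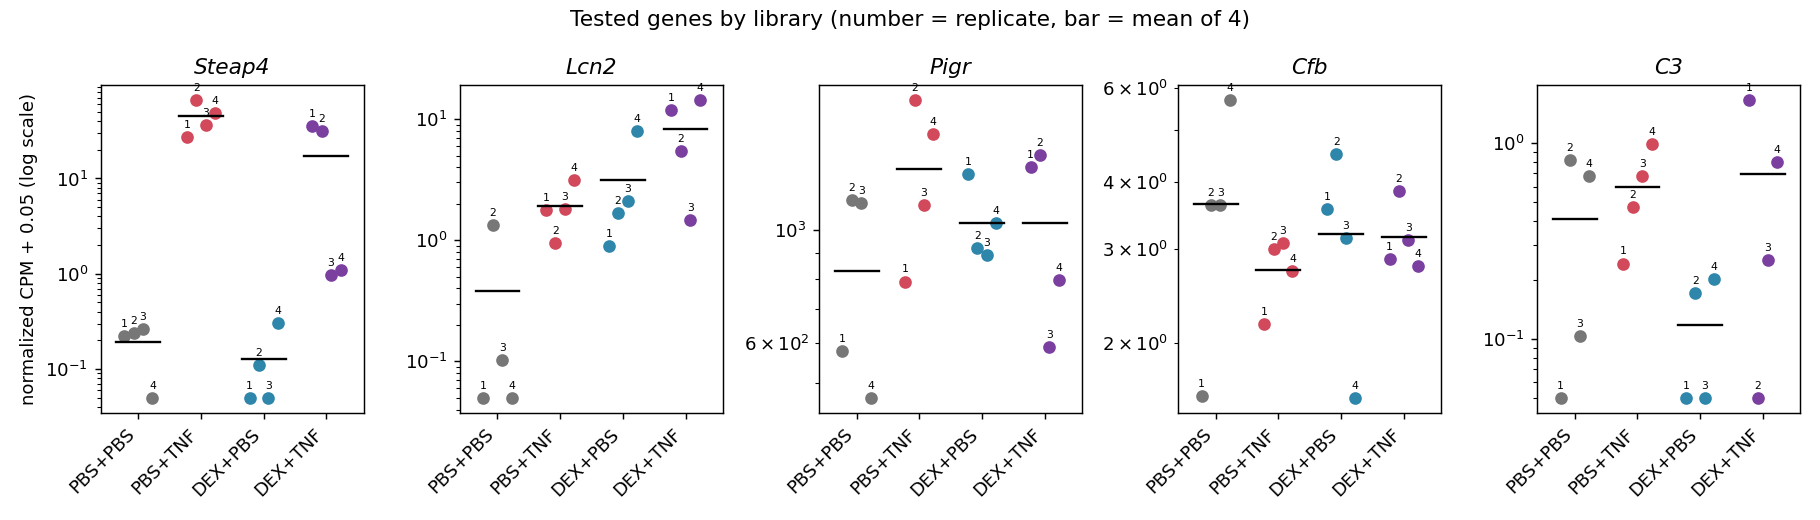
Normalized CPM plus 0.05 (log axis, a separate range for each gene) of the 5 tested genes in each of the 16 libraries, by injection group; numbers are replicates and the bar is the mean of the 4 libraries. Steap4 is low in every library without TNF, high in the 4 PBS+TNF libraries and in DEX+TNF 1 and 2, and close to 1 CPM in DEX+TNF 3 and 4, while Lcn2 is lowest in PBS+PBS.

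Lcn2 (ENSMUSG00000026822, chr2:32274645-32278264, reverse strand) encodes lipocalin-2, a secreted protein that binds bacterial siderophores and so withholds iron. It was low, and it was the member with the largest difference after DEX. In PBS+PBS the counts were 0, 20, 1 and 0, so 20 of the group's 21 counts came from PBS+PBS 2, and the levels were 0, 1.28, 0.0534 and 0 CPM. In DEX+PBS all 4 libraries had counts of 7, 27, 18 and 154, or 0.850, 1.63, 2.06 and 7.85 CPM. The groups overlapped at PBS+PBS 2, and the means were 0.333 ± 0.630 and 3.10 ± 3.21 CPM (SD, n = 4). The log2 difference of DEX+PBS from PBS+PBS was 3.08 (SE 0.99), which did not pass the threshold (edgeR adjusted p = 1). Leaving out PBS+PBS 2, after which the controls held 1 count in all, gave 6.52 and leaving out DEX+PBS 4 gave 2.02, with adjusted p-values between 0.407 and 1 over the alternatives.

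With TNF as the second injection, Lcn2 was again higher after DEX. PBS+TNF libraries held 9, 15, 25 and 62 counts, or 1.73, 0.904, 1.76 and 3.07 CPM, and DEX+TNF libraries held 146, 67, 14 and 288 counts, or 11.8, 5.42, 1.43 and 14.4 CPM. DEX+TNF 1, 2 and 4 lay above every PBS+TNF library, and DEX+TNF 3 lay within the PBS+TNF range. The means were 1.87 ± 0.895 and 8.25 ± 5.90 CPM (SD, n = 4), and the log2 difference was 2.13 (SE 0.87), which did not pass the test (edgeR adjusted p = 0.33, range 0.219 to 0.634 over the alternatives), and 2.19 without DEX+TNF 3 and 4. Unlike Steap4, Lcn2 was high in DEX+TNF 4, so the libraries low in Nfkbia did not share 1 level of Lcn2.

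In a comparison added after these values had been seen, DEX was averaged over both second injections. The log2 difference of Lcn2 was then 2.61 (SE 0.656), again short of the threshold with edgeR (adjusted p = 0.183), which called 0.186% of all genes. DESeq2 called it (adjusted p = 0.0105), as did edgeR without PBS+PBS 2, with a log2 difference of 4.33 (adjusted p = 0.0369). The range over all alternatives was 0.0105 to 0.439, so the call depends on the tool and on that library. The difference was above zero in each alternative run.

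TNF differences of Lcn2 are a description. Without DEX, the log2 difference of PBS+TNF from PBS+PBS was 2.33 (SE 0.99), and it was 5.78 without PBS+PBS 2. After DEX, DEX+TNF differed from DEX+PBS by 1.38 (SE 0.83) on the log2 scale, by 1.42 without DEX+TNF 3 and 4, by 2.44 without DEX+PBS 4 and by 0.98 without DEX+TNF 4. By mean level the groups ran from DEX+TNF through DEX+PBS and PBS+TNF to PBS+PBS, and each neighbouring pair overlapped.

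Pigr (ENSMUSG00000026417, chr1:130754397-130779986, forward strand) encodes the polymeric immunoglobulin receptor, which carries immunoglobulin A and M across the epithelium. It was the abundant member, with 3714 to 31288 counts per library. Its levels were 578, 1147, 1132 and 467 CPM in PBS+PBS, 792, 1809, 1121 and 1549 CPM in PBS+TNF, 1290, 920, 894 and 1034 CPM in DEX+PBS, and 1331, 1408, 589 and 798 CPM in DEX+TNF. The 4 groups overlapped throughout, and the means were 831 ± 359, 1318 ± 451, 1035 ± 181 and 1031 ± 401 CPM (SD, n = 4). DEX+TNF 3 and 4 were again the lower libraries of their group.

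The log2 difference of Pigr after DEX was 0.32 (SE 0.37, edgeR adjusted p = 1) with PBS and -0.35 (SE 0.37, adjusted p = 0.762) with TNF as the second injection, and neither passed the test. Without DEX+TNF 3 and 4 the latter was 0.06. For TNF, described only, the log2 difference was 0.67 (SE 0.37) without DEX and close to 0 (-0.0046, SE 0.37) after DEX, and the value after DEX was 0.41 without DEX+TNF 3 and 4.

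Cfb (ENSMUSG00000090231, chr17:35074852-35081559, reverse strand) encodes complement factor B, the serine protease of the alternative pathway convertase. It was present at a low level in every library, from 1.53 to 5.65 CPM, with 11 to 74 counts per library. The levels were 1.54, 3.57, 3.58 and 5.65 CPM in PBS+PBS, 2.12, 2.95, 3.02 and 2.67 CPM in PBS+TNF, 3.52, 4.46, 3.09 and 1.53 CPM in DEX+PBS, and 2.82, 3.80, 3.06 and 2.74 CPM in DEX+TNF. All groups overlapped. The log2 differences after DEX were -0.18 (SE 0.37, edgeR adjusted p = 1) and 0.19 (SE 0.37, adjusted p = 0.888), and those after TNF, described only, were -0.39 (SE 0.37) and -0.02 (SE 0.37). Without DEX+TNF 3 and 4, the difference of DEX+TNF was 0.28 from PBS+TNF and 0.08 from DEX+PBS.

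The reading of Cfb is limited by its locus. In the GENCODE M39 annotation, 65.7% of its exon bases also belong to exons of Gm20547 on the same strand, which had 0 counts in all 16 libraries, and 49.8% overlap Nelfe on the opposite strand, which had 2484 counts in all. How reads in shared exons were assigned is not given in the sources used here, so the level of Cfb is uncertain.

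C3 (ENSMUSG00000024164, chr17:57510964-57535155, reverse strand) encodes the central complement component, from which all activation pathways proceed. It stood at the limit of detection, with 96 counts over all libraries and at most 20 in any. The levels were 0, 0.766, 0.0534 and 0.628 CPM in PBS+PBS, 0.193, 0.422, 0.633 and 0.941 CPM in PBS+TNF, 0, 0.121, 0 and 0.153 CPM in DEX+PBS, and 1.61, 0, 0.204 and 0.748 CPM in DEX+TNF. Each group but PBS+TNF held a library at 0. The log2 differences after DEX were -1.92 (SE 1.25, edgeR adjusted p = 1) with PBS and 0.16 (SE 1.00, adjusted p = 0.967) with TNF, and those after TNF, described only, were 0.71 (SE 1.04) and 2.79 (SE 1.20). Without DEX+TNF 3 and 4, DEX+TNF differed by 0.47 from PBS+TNF and by 3.09 from DEX+PBS.

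**Figure D2:**
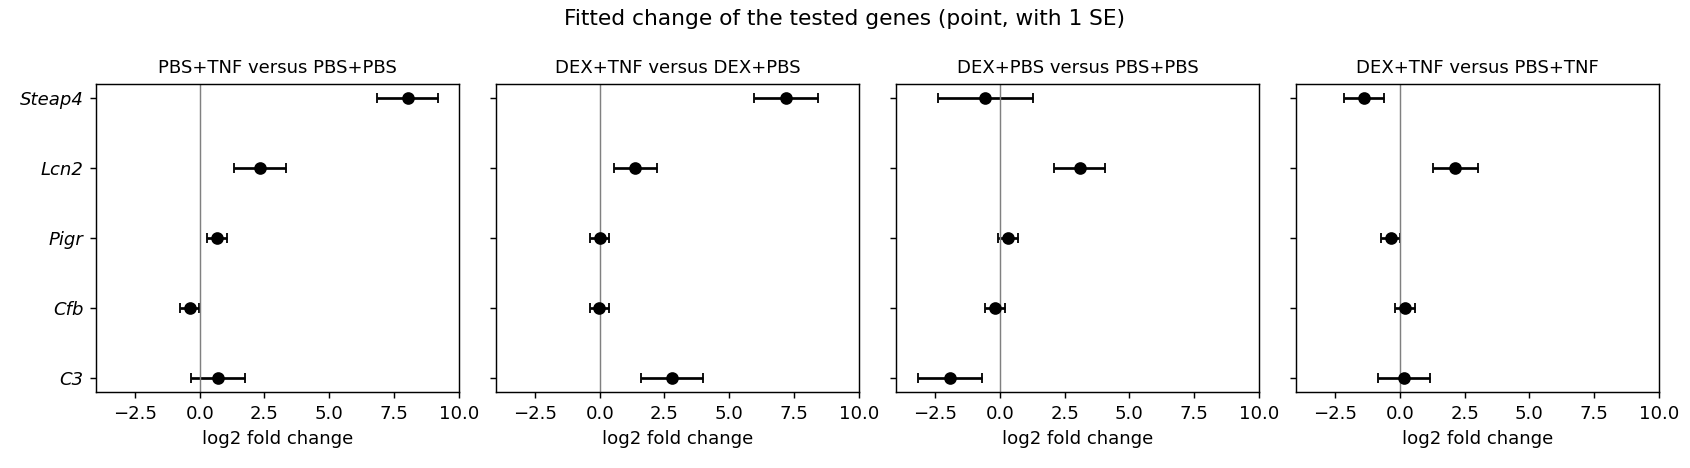
Fitted log2 fold change (x axis) with 1 standard error for the 5 tested genes in the 4 comparisons of groups. Steap4 lies at 8.02 and 7.19 in the comparisons of TNF with PBS, by which it was chosen; Lcn2 lies at 3.08 and 2.13 in the comparisons of DEX with PBS, and the Pigr and Cfb values stay within 0.67 of zero.

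Transcripts of serum amyloid A, haptoglobin and ceruloplasmin, which are classical plasma proteins, were close to absent. Mean levels over the 16 libraries were 0.547 CPM for Saa2 and 0.421 CPM for Saa1, near the 0.405 CPM of C3. Serum amyloid A proteins are lipoprotein-bound acute phase proteins, haptoglobin binds free haemoglobin, and ceruloplasmin is a copper-carrying ferroxidase. Saa1 (ENSMUSG00000074115, chr7:46389916-46392547, reverse strand) had counts of 0, 49, 18 and 0 in PBS+PBS, 4, 4, 5 and 0 in PBS+TNF, 0 in all DEX+PBS libraries, and 1, 0, 4 and 16 in DEX+TNF. Saa2 (ENSMUSG00000057465, chr7:46401214-46403737, forward strand) had 3, 54, 5 and 0 counts in PBS+PBS, 2, 5, 7 and 1 in PBS+TNF, 0, 0, 0 and 3 in DEX+PBS, and 0, 2, 20 and 24 in DEX+TNF. Both genes were highest in PBS+PBS 2, a library that had received no TNF, and in every group at least 1 library of Saa1 was at 0.

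Saa3 (ENSMUSG00000040026, chr7:46361422-46365576, reverse strand), a serum amyloid A gene known for its expression outside the liver, had 33 counts in all, of which 10 and 12 came from PBS+PBS 2 and 3 and 6 from DEX+TNF 4. Hp (ENSMUSG00000031722, chr8:110301759-110305804, reverse strand) had 59 counts, with 32 in PBS+PBS 2, 12 in DEX+TNF 4 and 6 in DEX+TNF 3. Cp (ENSMUSG00000003617, chr3:20011090-20063930, forward strand) had 7 counts, with 5 in DEX+TNF 4 and 1 each in PBS+PBS 2 and 4. None of the 5 genes was separated by group, and TNF did not bring any of them to a level detectable in all 4 libraries of a group at 3 counts or more. Saa1 and Saa2 shared 21.5% and 22.3% of their 50-base words with each other, so their counts could be split in part between the copies.

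The few counts of Saa1, Saa2 and Hp lay together with those of albumin. PBS+PBS 2, DEX+TNF 3 and DEX+TNF 4, picked as the 3 libraries with most counts of Saa1, Saa2 and Hp, held 217 of their 286 counts (75.9%). That share is high by the choice of libraries. The same 3 libraries held 59 of the 74 counts of Alb (79.7%), the plasma albumin gene. Alb had 32 counts in PBS+PBS 2, 5 in DEX+TNF 3 and 22 in DEX+TNF 4, and at most 5 in any other library. The acute phase genes Orm1, Fgb and Fgg had 9, 20 and 24 counts in PBS+PBS 2, 5, 13 and 6 in DEX+TNF 3, and 10, 2 and 8 in DEX+TNF 4. None of them had more than 3 in any other library. The summed level of all 6 hepatocyte markers did not follow this division, with 6.25 to 27.4 CPM in PBS+PBS, 10.02 to 18.1 CPM in PBS+TNF, from 5.81 to 23.4 CPM in DEX+PBS and from 3.31 to 15.0 CPM in DEX+TNF. That sum includes Ttr and Apoh, the only 2 of the 6 that passed the low-count filter, so it need not show what the scarcer markers did. The part of RNA from other cells in these counts was not tested, and in bulk libraries more cells of another type and more RNA per cell cannot be told apart.

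**Figure D3:**
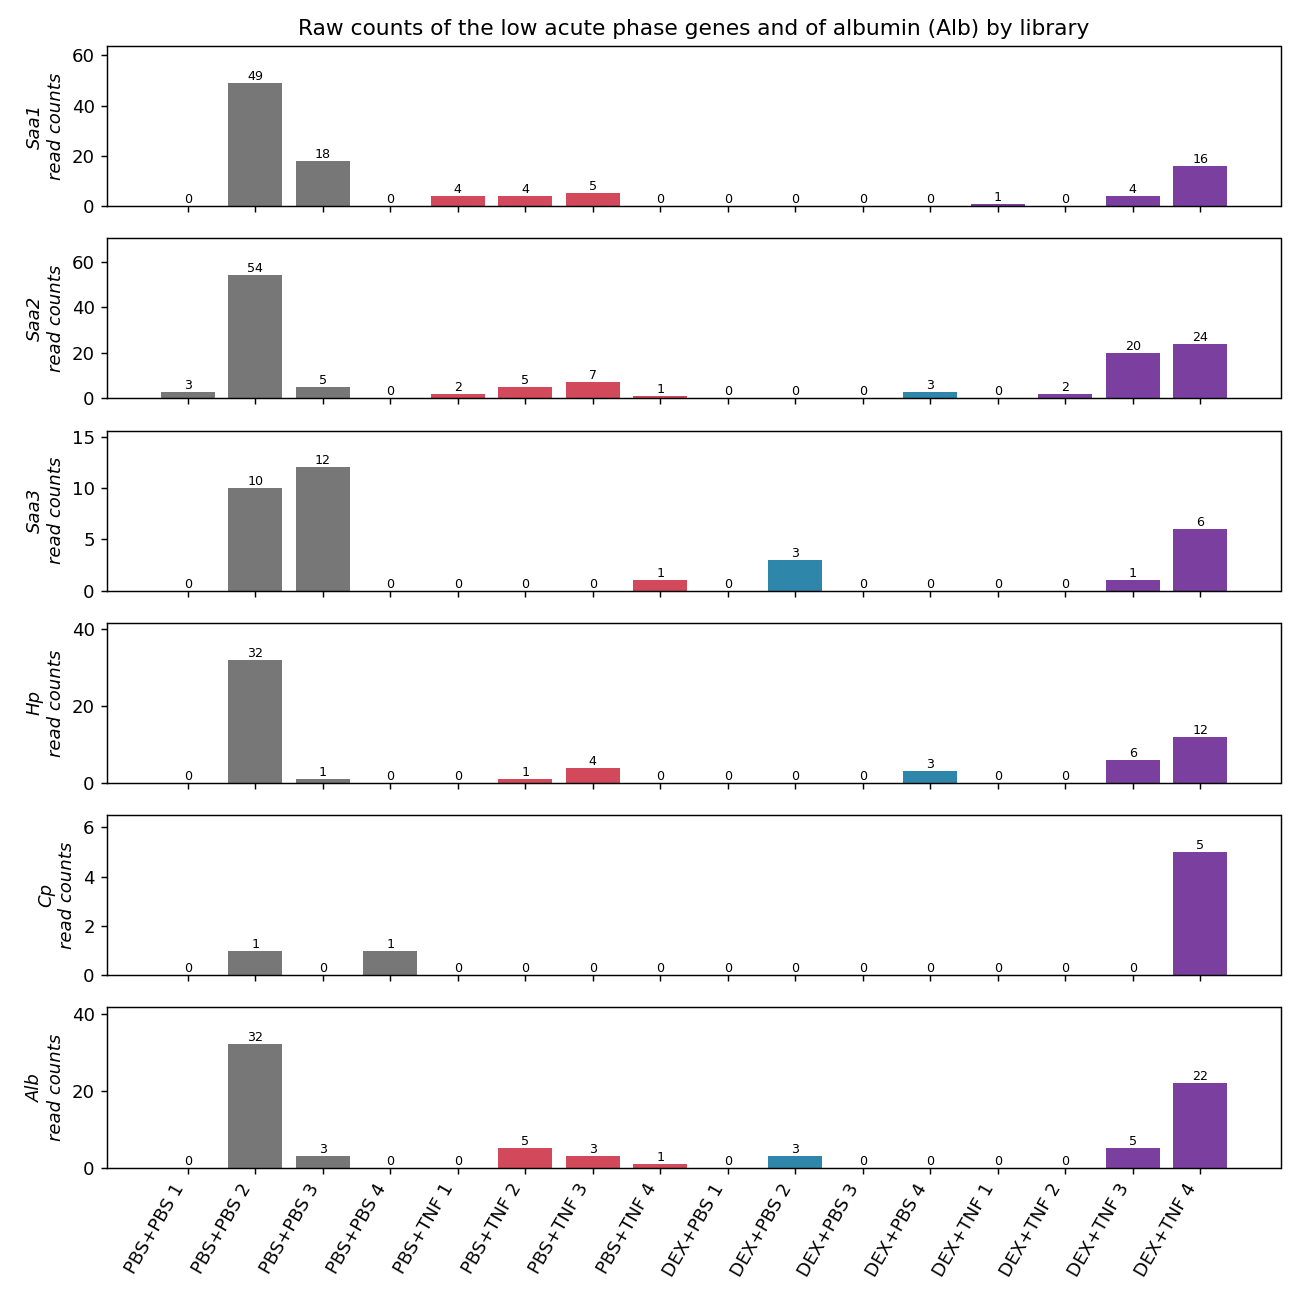
Raw read counts (y axis, a separate range for each gene) of Saa1, Saa2, Saa3, Hp, Cp and, for comparison, albumin (Alb) in each of the 16 libraries. The highest bars for Saa1 (49), Saa2 (54), Hp (32) and Alb (32) stand in PBS+PBS 2, and DEX+TNF 4 holds the highest bar for Cp (5).

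Lcn2 is also an abundant gene of neutrophils, but all 9 neutrophil markers, among them S100a8, S100a9, Ly6g and Mpo, were at 0 counts in all 16 libraries. Of the 8 macrophage markers, Marco was at 0 in all libraries, and their summed level reached at most 7.60 CPM, in DEX+PBS 4, the DEX+PBS library in which Lcn2 was highest. Summed macrophage levels were 0 to 0.481 CPM in PBS+PBS, 0.0990 to 0.984 CPM in PBS+TNF, at most 7.60 CPM in DEX+PBS and at most 3.29 CPM in DEX+TNF. DEX+TNF 4, where Lcn2 was highest of all, was also the highest in the 5 tuft cell markers, at 572 CPM, against ranges of 3.08 to 41.9 CPM in PBS+PBS, 3.86 to 127 CPM in PBS+TNF and 17.8 to 95.2 CPM in DEX+PBS, and a lowest value of 0.162 CPM in DEX+TNF. The same library was the highest of the 16 in enterocyte markers (447 CPM), stem cell markers (1219 CPM) and lymphocyte and plasma cell markers (21.0 CPM), and the lowest in Paneth cell markers (283708 CPM). The Paneth value is lowered by the TMM factor of this library, 1.50, the largest of the 16, and PBS+TNF 4 was close at 294028 CPM. Unscaled, Paneth markers held 5689684 of 13396988 counts in DEX+TNF 4 and 5937702 of 13997031 in PBS+TNF 4. Whether these markers have a part in the Lcn2 levels was not tested.

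Counted over the members, the tests gave few calls. Of the 5 tested members, 1, Steap4, passed the threshold in PBS+TNF versus PBS+PBS, where 12.5% of all tested genes did, and 1, Steap4, in DEX+TNF versus DEX+PBS, where 0.339% did. Both counts stand in contrasts used for the choice and are not read further. The first count was 2, with Lcn2, without PBS+PBS 2, and the second was 0 in 17 of 25 alternatives. In DEX+PBS versus PBS+PBS edgeR and DESeq2 called 0 of the 5 members, with 1, Lcn2, at an unadjusted p under 0.05, beside 0.00847% of all genes called and 1.9% at an unadjusted p under 0.05. In DEX+TNF versus PBS+TNF both tools again called 0 of 5, with Lcn2 as the 1 member at an unadjusted p under 0.05, beside 0.339% of all genes called and 11.9% at that unadjusted p. A test of the interaction, which asks whether the TNF difference itself changed after DEX, called 0 of 5 members with both tools, 0 of 5 at an unadjusted p under 0.05 and 0% of all genes with edgeR, although 642 genes (5.44%) had an unadjusted p under 0.05 and DESeq2 called 9.

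The interaction values were -0.95 (SE 1.27) for Lcn2, -0.83 (SE 2.24) for Steap4, 2.08 (SE 1.59) for C3, 0.37 (SE 0.53) for Cfb and -0.67 (SE 0.53) for Pigr on the log2 scale, all with an edgeR adjusted p of 1. Each was smaller than 2 standard errors. Without DEX+TNF 3 and 4 the values were -0.90 for Lcn2, 0.12 for Steap4, 2.38 for C3, 0.46 for Cfb and -0.26 for Pigr. The Steap4 interaction contains the TNF difference by which that gene was chosen, and such a choice tends to lower it. Its value and its test are therefore descriptions. The median log2 difference over the 5 tested members, beside that over all 11809 tested genes, was 0.71 against -0.03 for PBS+TNF versus PBS+PBS, 1.38 against 0.03 for DEX+TNF versus DEX+PBS, -0.18 against -0.02 for DEX+PBS versus PBS+PBS and 0.16 against 0.03 for DEX+TNF versus PBS+TNF. The first pair of these comparisons was used in the choice of the members. These medians rest on few genes and single libraries: they were 1.56 without PBS+PBS 2 in the first comparison, 2.44 without DEX+PBS 4 in the next and -0.50 without DEX+TNF 1 in the last. Where only members with a mean of at least 5 CPM were tested they were 4.31, 3.56 and -0.89.

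The levels of the 5 tested members did not run together across the libraries. Pearson's r of log2 CPM between pairs of members, over 16 libraries and given as a description, ranged from -0.22 for Lcn2 and Cfb to 0.55 for Steap4 and Pigr, and it was 0.42 for Lcn2 and Steap4. Among genes whose mean reached 5 CPM, those whose pattern was most like that of Steap4 were Rel (r = 0.987), an NF-κB subunit gene, Tat (r = 0.985), which encodes tyrosine aminotransferase, and Junb (r = 0.983), an AP-1 subunit gene. Those most like Lcn2 were Ddit4 (r = 0.874), an inhibitor of mTORC1 signalling, the metallothionein gene Mt1 (r = 0.824) and Sgk1 (r = 0.796). The gene nearest to Pigr was Cc2d1a (r = 0.952), that nearest to Cfb was Cldn23 (r = 0.826) and that nearest to C3 was Far2 (r = 0.728). All points share the libraries and their scaling, and differences between groups were left in. The matches to Steap4 therefore also reflect the TNF difference by which it was chosen, and they are descriptions.

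Of 33 listed receptors and regulators that act on acute phase genes, 29 were tested, and in PBS+TNF 13 were higher than in PBS+PBS, 1 was lower and 15 were not called (edgeR), beside 7.15% higher and 5.35% lower of all genes. All gene lists were drawn up with earlier results of these data known. Counts of list genes beside the share of all genes are therefore descriptions, here and below. Osmr, the oncostatin M receptor gene, was at 0, 0.128, 0.160 and 0.126 CPM in PBS+PBS and at 10.8, 30.2, 12.9 and 13.4 CPM in PBS+TNF. Its log2 difference was 7.16 (SE 1.08, edgeR adjusted p = 0.000976). Near absent in PBS+PBS, Osmr did not pass the low-count filter through that group. The filter can therefore raise the counts that include Osmr, here and after DEX, beside the shares of all genes. The p-values of Osmr are likewise descriptions. Cebpd, a C/EBP factor gene, differed by 4.46 (SE 0.525, adjusted p = 0.000207) and Socs3, a feedback inhibitor of STAT3 signalling, by 4.36 (SE 0.611, adjusted p = 0.000663). The gene that fell was Il6ra, the interleukin-6 receptor alpha chain gene, named after its value was seen, at -2.69 (SE 0.535, adjusted p = 0.0043). In the same comparison 2 of 4 stem cell markers were called lower, Lgr5 (-1.58, adjusted p = 0.0139) and Smoc2 (-0.80, adjusted p = 0.0207), and 1 of 3 tested enteroendocrine markers was called higher, Tac1 (3.81, adjusted p = 0.0406). The part of these cell types in the changes of the lists was not tested.

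After DEX, 5 of the 29 regulators were higher in DEX+TNF than in DEX+PBS and 0 were lower, beside 0.322% and 0.0169% of all genes. Osmr differed by 5.79 (SE 1.10, edgeR adjusted p = 0.0456), Relb by 3.33 (SE 0.658, adjusted p = 0.0456) and Nfkb2, which like Relb encodes an NF-κB subunit, by 3.02 (SE 0.631, adjusted p = 0.0491). Osmr showed the same division as Steap4, with 8.87 and 12.8 CPM in DEX+TNF 1 and 2 and 0.204 and 1.05 CPM in DEX+TNF 3 and 4. The count of 5 was 18 without libraries 3 and 4, 13 without DEX+TNF 3, 10 without DEX+TNF 4, and 0 when any other library was left out, and DESeq2 called 10 with all libraries. Neither DEX comparison called any of the 29 with edgeR, with 0 at an unadjusted p under 0.05 for DEX+PBS versus PBS+PBS (1.9% of all genes) and 5 for DEX+TNF versus PBS+TNF (11.9%), where DESeq2 called 3 and edgeR called 0.339% of all genes.

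Other acute phase genes were mostly silent, as were the genes of serum amyloid A, haptoglobin and ceruloplasmin. Of 25 listed, 5 passed the low-count filter, and 3 of these were higher in PBS+TNF than in PBS+PBS and 0 lower, beside 7.15% and 5.35% of all genes. Lrg1, which encodes a leucine-rich plasma glycoprotein, was at 0, 0.447, 0 and 0 CPM in PBS+PBS and at 4.82, 9.28, 5.91 and 10.7 CPM in PBS+TNF (log2 difference 5.84, SE 0.914, edgeR adjusted p = 0.00116). Hamp, the gene of the iron-regulating hormone hepcidin, had 5 counts in 1 PBS+PBS library, PBS+PBS 3, and 0 in the other 3, and 10, 18, 11 and 21 counts in PBS+TNF (log2 difference 3.67, SE 0.995, adjusted p = 0.0271). Cd14, the lipopolysaccharide co-receptor gene, differed by 1.79 (SE 0.470, adjusted p = 0.0186). Lrg1 and Hamp were near absent in PBS+PBS and did not pass the filter through that group. The filter can therefore raise the count of 3 beside the share of all genes. After DEX, edgeR called 0 of the 5 for TNF, beside 0.339% of all genes, with 2 at an unadjusted p under 0.05, beside 10.4%, and DESeq2 called 2. The count of 3 was 1 without PBS+TNF 4, and 5 without any 1 of DEX+PBS 2, DEX+PBS 4, DEX+TNF 3 or DEX+TNF 4. It was 0 where genes needed a mean of at least 5 CPM.

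Beyond Steap4, 24 of 34 other iron handling genes were tested, of which 1 was higher and 4 were lower in PBS+TNF than in PBS+PBS, beside 7.15% and 5.35% of all genes. Slc11a2, the divalent metal transporter gene, was at 11.4, 16.2, 14.2 and 12.1 CPM in PBS+PBS and at 32.6, 54.5, 45.6 and 54.3 CPM in PBS+TNF, a log2 difference of 1.80 (SE 0.411, edgeR adjusted p = 0.00911). Steap3, a relative of Steap4 that reduces iron in endosomes, fell by 2.03 on the log2 scale (SE 0.536, adjusted p = 0.0195), and Ncoa4, the receptor for ferritin breakdown, fell by 0.88 (SE 0.199, adjusted p = 0.00843). The remaining calls, named after their values were seen, were Slc48a1, a haem transporter gene (-0.79, adjusted p = 0.00679), and Aco1, the cytosolic aconitase and iron regulatory protein gene (-0.65, adjusted p = 0.0383). The relatives Steap1 and Steap2 did not pass the test, with log2 differences of 1.82 (SE 0.602, adjusted p = 0.0563) and 0.03 (SE 0.538, adjusted p = 0.982). After DEX, edgeR and DESeq2 called 0 of the 24 for TNF, with 4 at an unadjusted p under 0.05, beside 10.4% of all genes. The 5 calls without DEX became 3 when PBS+PBS 1 or PBS+TNF 3 was left out, and DESeq2 called 8.

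Other complement genes gave no call for TNF. Of 30 listed, 29 were in the table, 10 were at 0 in all libraries and 7 were tested. EdgeR called 0 of the 7 in PBS+TNF versus PBS+PBS, with 3 at an unadjusted p under 0.05, a level that 26.4% of all genes reached, and DESeq2 called 2. Leaving out PBS+PBS 4 gave 3 calls and leaving out PBS+PBS 1 gave 1. Among them C4b, which encodes complement component C4 and was named after its values were seen, was at 3.77, 17.0, 14.8 and 4.40 CPM in PBS+PBS and at 1.16, 4.76, 2.53 and 6.04 CPM in PBS+TNF, with a log2 difference of -1.41 (SE 0.507, edgeR adjusted p = 0.0777). In each of the other comparisons of groups edgeR and DESeq2 called 0 of the 7, with 1 at an unadjusted p under 0.05 after DEX for TNF (10.4% of all genes), 1 in DEX+PBS versus PBS+PBS (1.9%) and 5 in DEX+TNF versus PBS+TNF (11.9%).

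**Figure D4:**
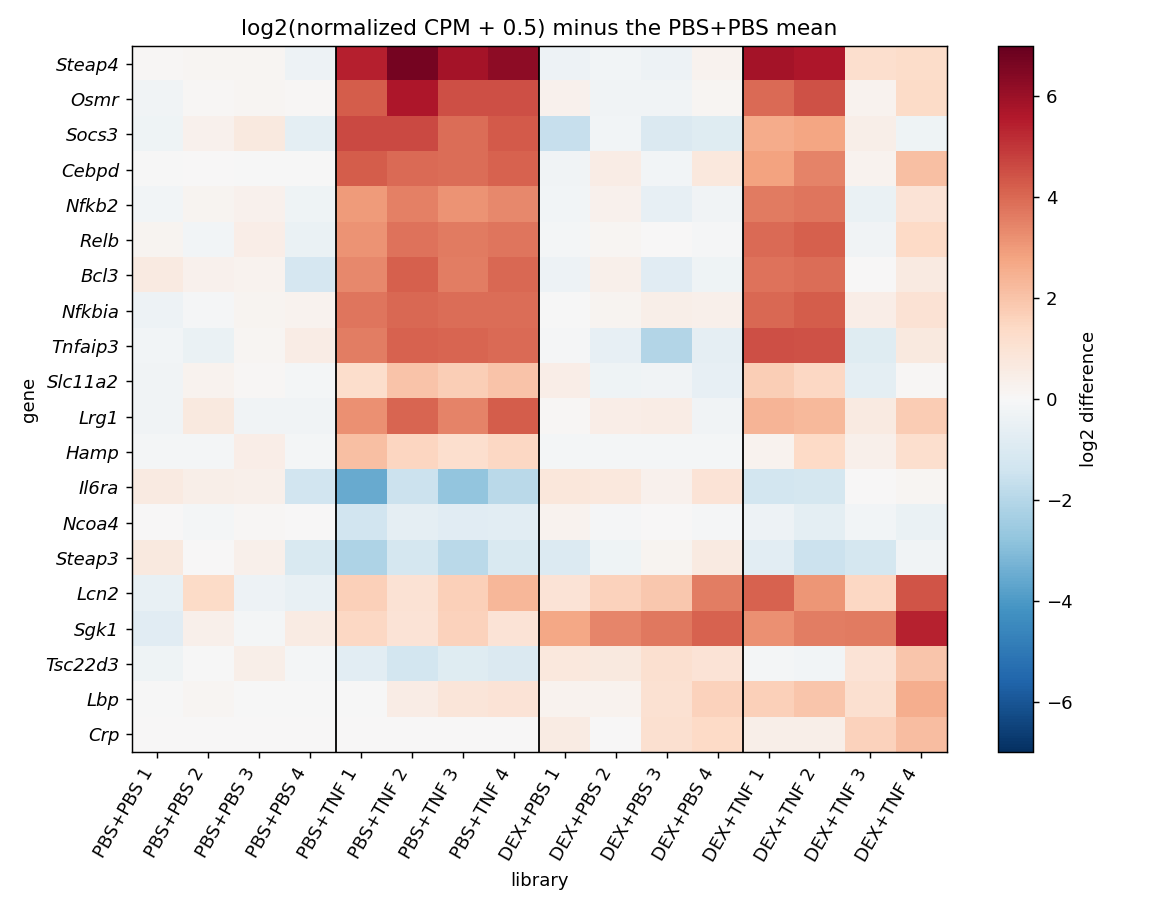
Difference of log2(normalized CPM + 0.5) from the PBS+PBS mean (colour scale) for 20 genes (rows) in the 16 libraries (columns), with vertical lines between the groups. Steap4, Osmr, Socs3, Cebpd and the NF-κB genes are high in PBS+TNF and in DEX+TNF 1 and 2 and near the PBS+PBS mean or only slightly above it in most cases in DEX+TNF 3 and 4, while Sgk1 and Lcn2 are above the PBS+PBS mean in all 8 libraries that received DEX and in the 4 PBS+TNF libraries.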

How the data were processed

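Total RNA of sorted Paneth cells was made into stranded mRNA libraries, per the labels. Unnormalized counts of reads by Ensembl gene were deposited, 1 column a library. The submitters' processing notes name STAR 2.7.10a. The study's methods name another version of STAR, with mm39, the GRCm39 assembly, and GENCODE M30, for its alignment of all reads. That alignment need not be the one behind the deposited counts. The counting program and the use of strand and of reads that match several genes are not given in the sources used here. Names and coordinates came from GENCODE M39 on GRCm39, which held 54749 of the 55414 gene IDs, and 0.00519% of counts fell on IDs without an entry. Sample titles gave each group and replicate number. The closest replicates differed by more than sampling noise, so all 16 libraries counted as separate samples. Libraries were scaled by TMM, genes were filtered by filterByExpr, and 11809 were fitted by edgeR 4.0.16 (limma 3.58.1, R 4.3.3) with the robust quasi-likelihood test, two-sided, with 1 mean per group over all 16 libraries and Benjamini-Hochberg adjustment over all tested genes. A gene was called at an adjusted p under 0.05, and the SE is the absolute log2 fold change divided by the square root of the F statistic. DESeq2 1.42.0, other scalings and filters, a replicate block and leaving out libraries were alternatives. The code was tested on simulated data. The members and all gene lists were chosen with earlier results of these data known. The named genes were the members, the 3 called genes with the largest change per list and comparison with at least 1 CPM in the higher group, those most like a member, and Nfkbia, Tnfaip3, Tsc22d3 and Sgk1. Markers of enterocytes, goblet, stem, enteroendocrine, lymphoid, stromal and red blood cells were also listed.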

Additional observations from a re-analysis of the deposited data

Results flagged for a closer look

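In 8 of 37 groups of 4 libraries tested, the highest library stood apart from the other 3, with a gap to the nearest library, as a share of the group's range, above Dixon's critical value. For normal values chance flags about 1 in 20 groups, a rate that does not hold for groups in which 3 libraries are at 0 and the gap is 1 by construction. In PBS+PBS, library 2 was the high library for Lcn2 (gap 0.958 of the range, 1.28 CPM against 0.0534 CPM in the nearest library), Saa2 (0.923, 3.45 against 0.267 CPM) and Hp (0.974, 2.04 against 0.0534 CPM). In DEX+PBS, library 4 was high for Saa2 and for Hp, each with a gap of 1 from 3 counts against 0 in the other libraries. Saa3 stood apart in DEX+PBS 2 with a gap of 1 from 3 counts and in PBS+TNF 4 with a gap of 1 from 1 count, and Cp in DEX+TNF 4 with a gap of 1 from 5 counts. The Lcn2, Saa2 and Hp values of PBS+PBS 2 stand in the library that also held 32 of the 74 counts of albumin, and the part of other cells in them was not tested.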

How the results depend on the processing

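For PBS+TNF versus PBS+PBS, 1 member was called (Steap4), and the count ranged from 1 to 2 when single libraries were left out (2, with Lcn2, without PBS+PBS 2) with 1 under every other alternative. In DEX+TNF versus DEX+PBS the count was 1 (Steap4). It was 0 with no low-count filter, 0 when only the libraries of both groups entered the fit and 0 with the replicate block, and it ranged from 0 to 1 when single libraries were left out, with 1 only without DEX+TNF 3 or DEX+TNF 4. DESeq2 and the fit without both kept the count at 1. In the comparisons of DEX with PBS and in the interaction the count was 0 under all alternatives. The cause of these changes was not tested.

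Directions turned for differences that were not called. Pigr in DEX+TNF versus DEX+PBS (main value -0.0046) was 0.0070 with only the libraries of both groups and -0.19 to 0.19 when single libraries were left out, and Cfb there was -0.25 to 0.21. Cfb in DEX+PBS versus PBS+PBS ranged from -0.43 to 0.10, and C3 in DEX+TNF versus PBS+TNF from -0.74 to 0.57. In the interaction, leaving out single libraries gave -4.39 to 0.11 for Lcn2 and -1.47 to 0.78 for Steap4, which was -1.80 with the replicate block. Without both DEX+TNF 3 and 4, Cfb was 0.081 and Pigr 0.41 in DEX+TNF versus DEX+PBS, Pigr was 0.058 in DEX+TNF versus PBS+TNF, and the Steap4 interaction was 0.12.

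Over all genes, the count called ranged from 916 to 2166 (main 1476) in PBS+TNF versus PBS+PBS, from 0 to 1286 (main 40) in DEX+TNF versus DEX+PBS and from 0 to 274 (main 40) in DEX+TNF versus PBS+TNF. Upper-quartile factors shifted the median of all genes in PBS+TNF versus PBS+PBS by -0.112 (log2) and moved the split of calls from 844 higher and 632 lower to 747 higher and 865 lower. Whether the replicate numbers pair the libraries is left unsettled, so the replicate block is given as an alternative. Same-numbered libraries of different groups correlated from -0.365 to 0.504, above 0.1 in 12 of 24 pairs. Those with different numbers correlated from -0.564 to 0.486. Pairs numbered 2 were all positive, from 0.153 to 0.412, while pairs numbered 3 ran from -0.365 to 0.317. At a count of 3, levels under 0.149 to 0.578 CPM were not detectable.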

Other observations

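Some genes of the acute phase and complement lists had values in the DEX groups that no comparison of members covers, and they were chosen here after their values were seen. Crp, the C-reactive protein gene, did not pass the low-count filter and was not tested. It was at 0 counts in all 8 libraries that received PBS first, and it had 2, 0, 5 and 16 counts in DEX+PBS and 2, 2, 10 and 35 counts in DEX+TNF. Lbp, which encodes the lipopolysaccharide-binding protein, was at 0, 0.0638, 0 and 0 CPM in PBS+PBS and at 0.121, 0.121, 0.573 and 1.07 CPM in DEX+PBS. With TNF it was at 0, 0.241, 0.422 and 0.495 CPM after PBS and at 1.13, 1.46, 0.612 and 2.49 CPM after DEX. In DEX+PBS 1 and 2 these levels are 1 and 2 counts, below the limit of 3, so no order of DEX+PBS and PBS+PBS is read from the separate libraries. Neither difference of Lbp passed the test, at 4.18 (SE 1.13, edgeR adjusted p = 1) and with TNF at 2.12 (SE 0.779, adjusted p = 0.267) on the log2 scale.

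C4b was higher after DEX than after PBS with TNF as the second injection, at 10.9, 7.44, 9.59 and 11.4 CPM against 1.16, 4.76, 2.53 and 6.04 CPM, without overlap, as in 3.47% of all genes, and without passing the test (log2 difference 1.38, SE 0.508, edgeR adjusted p = 0.27). Of the 7 tested genes of the complement list, C4b among them, 2 were higher and 2 were lower without overlap in DEX+TNF than in PBS+TNF. Lrg1 was lower after DEX, at 2.58, 2.34, 0.408 and 1.55 CPM in DEX+TNF against 4.82 to 10.7 CPM in PBS+TNF. Its log2 difference was -2.15 (SE 0.702, edgeR adjusted p = 0.204), beside 2.91% of all genes that were lower without overlap. Tnfaip3, an NF-κB target that limits NF-κB signalling, was at 115, 110, 2.25 and 7.38 CPM in DEX+TNF. Tsc22d3, a glucocorticoid-induced gene, was higher in DEX+TNF than in PBS+TNF by 2.00 on the log2 scale (SE 0.387, adjusted p = 0.0344), and Sgk1 by 3.06 (SE 0.478, adjusted p = 0.0236). Of the other marker lists, summed levels were 17.3 to 447 CPM for enterocytes, 7066 to 40338 CPM for goblet cells, 252 to 1219 CPM for stem cells, 0 to 15.9 CPM for enteroendocrine cells, 0 to 21.0 CPM for lymphocytes and plasma cells, 0 to 0.648 CPM for stromal and endothelial cells and 0 to 0.648 CPM for red blood cells over the 16 libraries.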
